A study of Mus musculus with 6 samples.

Results

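Aminoacyl-tRNA synthetases are the enzymes that join each amino acid to its tRNA and so supply the ribosome with charged tRNAs. The transcripts of 36 nuclear genes for these enzymes were examined in mouse macrophages that were left untreated, stimulated with LPS, or given metformin before LPS. The genes were taken by symbol, a rule that uses no measured value, although the set was proposed with earlier results of these data known. All 36 were found among the 54532 genes of the deposited table, with Mars1 listed there as Mars. Of these, 20 genes code for cytosolic enzymes and 16, whose symbols end in 2, for mitochondrial enzymes. All 36 passed the filter on low values and were among the 12755 genes tested.

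The cells were bone-marrow-derived macrophages (BMDMs) of wildtype C57BL/6 mice, grown from marrow in medium conditioned by L929 cells. The 6 RNA-seq libraries made up 3 groups of 2. BMDMs of the first group were untreated, those of the LPS group received 100 ng/ml LPS, a bacterial envelope molecule sensed through the receptor TLR4, for 2 h, and those of the Met + LPS group received 5 mM metformin, a drug used against type-2 diabetes, for 6 h before the same LPS stimulation. No group received metformin without LPS, and the comparisons with the LPS group share its 2 libraries. The age of the mice is not given in the sources used here. The study states that the cells were seeded in duplicate, and neither it nor the labels name separate mice for the libraries of a group. The p-values thus measure only the spread between these libraries, which may be technical.

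Values are TPM, which are read counts corrected for gene length and for the library total. The length that gave whole reads here was that of all annotated exons of a gene together, such as 18102 bases for Eprs and 3094 for Pars2. It can exceed the length of the transcript a cell makes. Levels and ratios between genes are therefore approximate. The TPM values corresponded to 25457016 to 30762754 reads on genes per library, and the synthetases rested on 806 to 21548 reads per library for cytosolic and on 28 to 9222 reads for mitochondrial enzymes. Markers of macrophages were abundant in every group, with Lyz2 at 21292 to 34912 TPM and Csf1r, the receptor for macrophage colony-stimulating factor, at 1259 to 1891 TPM in the group means. Summed markers of T cells, B cells, erythroid cells and fibroblasts stayed under 1 TPM in each library. The 4 neutrophil markers summed to 21.4 and 26.9 TPM untreated, 13.3 and 18.7 TPM with LPS and 25.3 and 28.3 TPM with Met + LPS. Of the 4, Ly6g was at 0 in 5 of the 6 libraries. Dendritic cell and mast cell markers each summed to under 2 TPM. Between LPS and Met + LPS, 4 of 7 macrophage markers were called lower and 0 higher, beside 18% lower and 14.5% higher of all tested genes. Those called lower were Fcgr1, Adgre1, Lyz2 and Itgam (log2 fold changes of -1.14, -0.34, -0.33 and -0.31). Cd68, Csf1r and Mrc1 were not called (0.003, -0.07 and -0.16). The sum of the 7, most of it Lyz2, went from 35470 and 34711 TPM to 28944 and 29063 TPM. The part of these markers in the results was not tested.

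Cells translate in separate compartments. The cytosolic enzymes serve the ribosomes that read nuclear messages, whereas the mitochondrial enzymes, also encoded in the nucleus and imported, serve the few proteins that mitochondrial DNA encodes. The enzymes fall into class I and class II by the fold of their catalytic domain, and several cytosolic ones are held together in the multi-synthetase complex (MSC). When amino acids are scarce, uncharged tRNAs activate the kinase GCN2, and translation of the transcription factor ATF4 rises. ATF4 is known to bind C/EBP-ATF response elements (CARE) near a set of genes for amino acid synthesis, transport and tRNA charging.

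The cytosolic transcripts were the more abundant group in every condition. Group means ran from 25.5 to 324 TPM in untreated BMDMs, with a median of 66.8 TPM over the 20 genes, and mitochondrial means ran from 2.70 to 110.2 TPM, with a median of 9.76 TPM. Nars (asparagine) was the highest cytosolic transcript in all 3 groups and Lars2 (leucine) the highest mitochondrial one. Replicates lay close together. The SD of the 2 libraries of a group was at most 8.87% of their mean for any cytosolic enzyme and reached 30.6% for a mitochondrial one. The standard errors of the log2 fold changes were 0.03 to 0.07 for cytosolic and 0.05 to 0.16 for mitochondrial members, so that a change of a given size was easier to detect among the cytosolic ones. The plot of TPM by library shows every value.

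**Figure D1:**
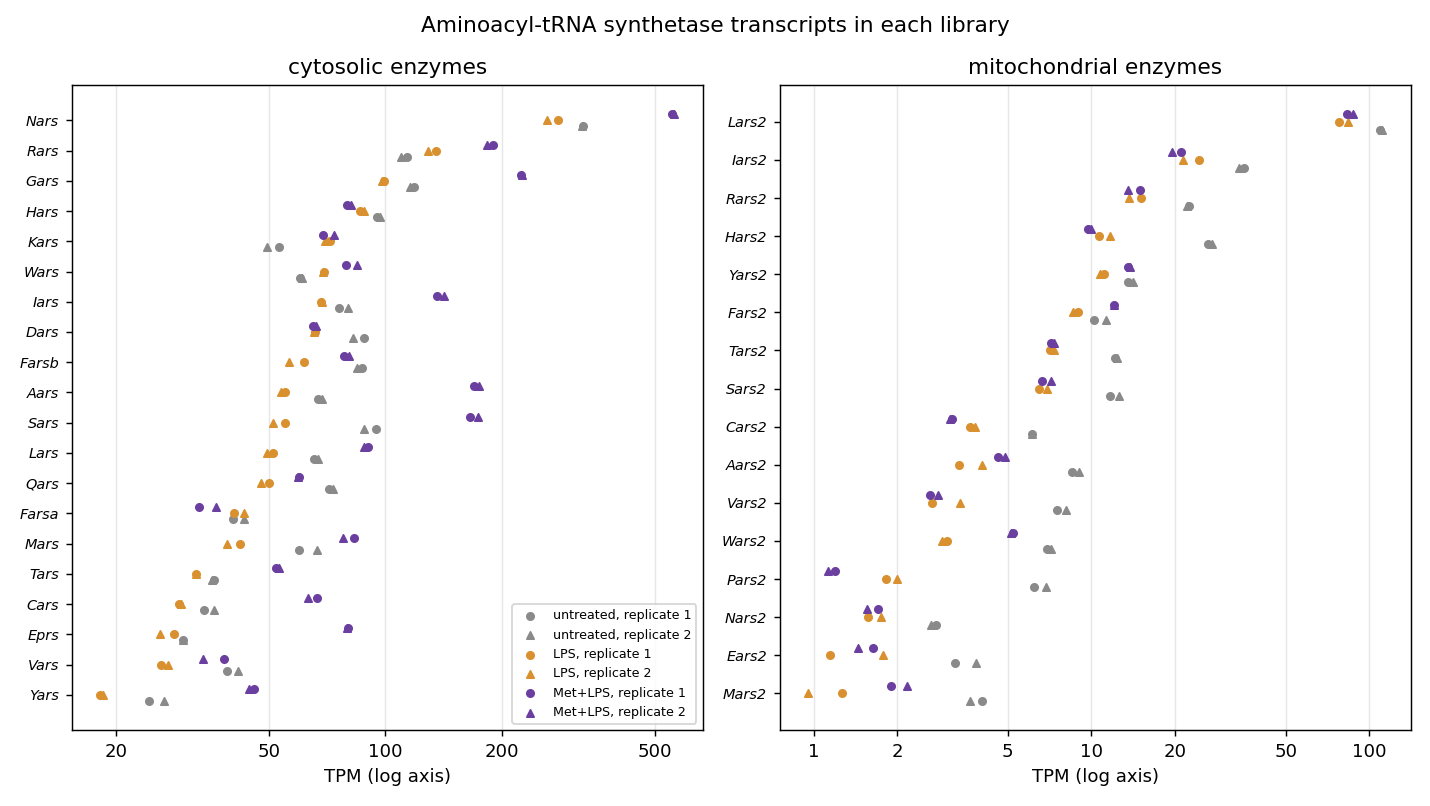
TPM of each enzyme in each of the 6 libraries, on log axes that differ between the panels, ordered by the mean with LPS; colours give the group and shapes the replicate. Among the cytosolic enzymes, the Met + LPS libraries of 10 lie furthest to the right of their LPS libraries, whereas most mitochondrial enzymes have their highest values in the untreated libraries.

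The first comparison asked what metformin pretreatment did to these transcripts in LPS-stimulated BMDMs. Transcripts of 16 of the 20 cytosolic enzymes were higher with Met + LPS than with LPS alone, as were those of 3 of the 16 mitochondrial enzymes (limma on log2(TPM + 1), adjusted p-value under 0.01 over all tested genes). None of the 36 was lower at that threshold. Over all 12755 genes, 14.5% were called higher and 18% lower. The median log2 fold change was 0.75 over the cytosolic and 0.02 over the mitochondrial enzymes, beside -0.03 over all tested genes. The counts and medians describe the groups, and the difference between the groups was not tested, since members are not replicates. A setting that weights reads in place of TPM (limma voom) called 16 cytosolic and 4 mitochondrial enzymes higher. As a group, the cytosolic enzymes summed to 1364 and 1323 TPM with LPS and to 2354 and 2378 TPM with Met + LPS. The Met + LPS mean was 1.76 times the LPS mean. The mitochondrial enzymes summed to 180.2 and 185 TPM with LPS and to 190.5 and 193 TPM with Met + LPS, 1.05 times as much. Of these sums, Lars2 alone made up 77.8 and 83.7 TPM with LPS and 83.4 and 87.5 TPM with Met + LPS. TPM are shares of a library, and a larger share of the RNA cannot be told apart from a change in RNA per cell or in cell numbers.

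The study's own cut-offs were 0.7 or more on the log2 scale in either direction with an adjusted p-value under 0.01. The study set them on DESeq2 fold changes of counts, and here they were applied to log2(TPM + 1), which compresses changes of low transcripts. On this scale 10 of the 36 were higher with Met + LPS and 0 were lower, and all 10 were cytosolic. Over all tested genes these cut-offs called 4.19% higher and 4.09% lower. With 0.1 TPM added in place of 1, 11 members passed upwards. With limma voom 12 passed, among them the mitochondrial Mars2 (0.87, adjusted p = 7.65e-05). At an unadjusted p-value under 0.05, limma put 2 cytosolic and 3 mitochondrial enzymes lower, and voom put 1 cytosolic enzyme and 0 mitochondrial ones lower at an adjusted p-value under 0.01. The 10 enzymes past the cut-offs charge tRNAs with serine, alanine, glutamate and proline, tyrosine, glycine, cysteine, asparagine, isoleucine, methionine and leucine. In the TPM as deposited, the untreated libraries of each of the 10 lay between its LPS and its Met + LPS libraries. The 10 were selected as higher than the same LPS libraries, and 60.1% of all tested genes were called lower with LPS than untreated. How many other genes had this order was not counted. This order rests on the scaling of LPS against untreated, which is taken up with that comparison.

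**Figure D2:**
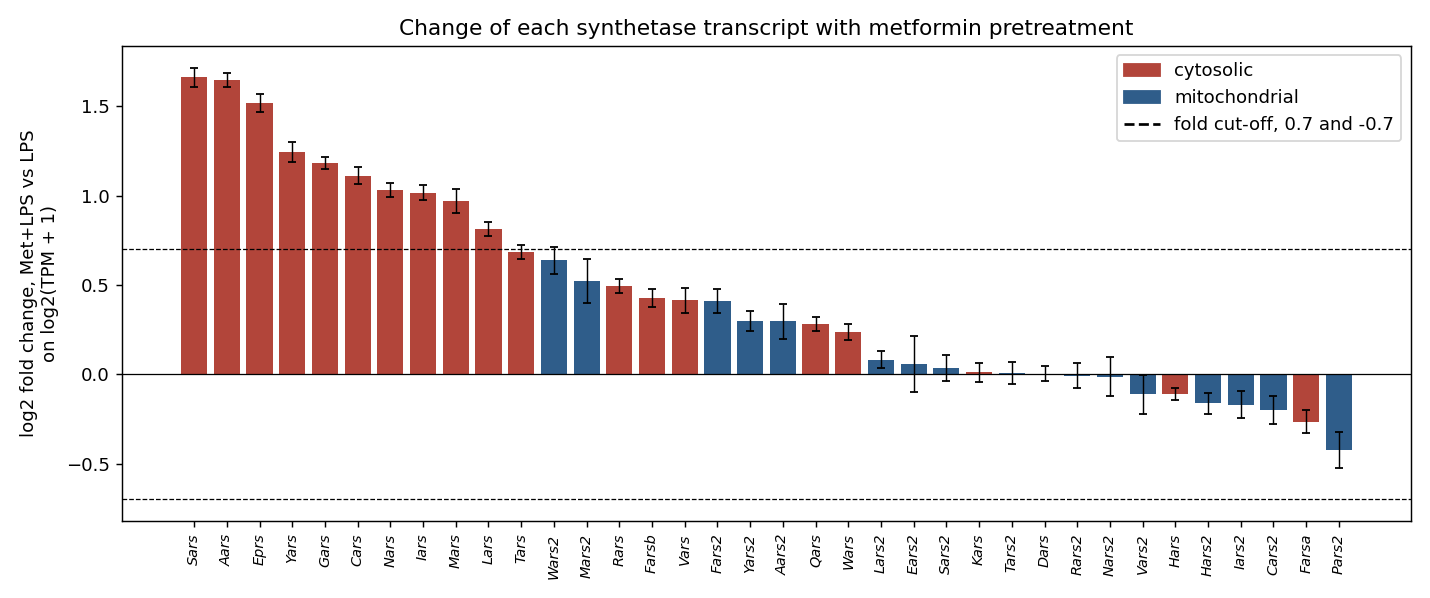
Log2 fold change of each enzyme from LPS to Met + LPS on the log2(TPM + 1) scale; bars are limma estimates from 2 libraries per group, whiskers are standard errors, and dashed lines mark the cut-offs of 0.7 and -0.7. The 10 bars above the upper line are all cytosolic, from 1.66 for Sars to 0.81 for Lars, and no bar passes the lower line.

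Sars, the seryl-tRNA synthetase (chr3:108424865-108445209, GRCm38), had the largest increase. It measured 94.8 and 88.1 TPM untreated, 54.8 and 51.2 TPM with LPS and 166 and 174 TPM with Met + LPS, so that both Met + LPS libraries were above all other libraries. The log2 fold change from LPS was 1.66 ± 0.05 (SE, n = 2 per group, limma adjusted p = 8.59e-06). Aars, the alanyl-tRNA synthetase (chr8:111033144-111057664), came next. It measured 66.7 and 68.4 TPM untreated, 55.00 and 53.6 TPM with LPS and 169 and 175 TPM with Met + LPS, with the groups apart and a log2 fold change of 1.65 ± 0.04 (limma adjusted p = 4.41e-06). In the annotation, 15.1% of the exon bases of Aars are shared with other genes, mostly with Exosc6 on the same strand, and 85.6% of its 31-base words occur in no other gene. Eprs (chr1:185363044-185428360) charges both glutamate and proline tRNAs from a single fused protein in the MSC. It measured 29.9 and 29.97 TPM untreated, 28.3 and 26.02 TPM with LPS and 79.8 and 79.3 TPM with Met + LPS. Its Met + LPS level was 2.93 times its LPS level (log2 fold change 1.52 ± 0.05, limma adjusted p = 8.59e-06), with the Met + LPS libraries far above the other groups.

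Yars (tyrosine) was the least abundant cytosolic transcript with LPS. It measured 24.3 and 26.7 TPM untreated, 18.3 and 18.6 TPM with LPS and 45.7 and 44.3 TPM with Met + LPS, and the Met + LPS mean was 2.44 times the LPS mean. Gars (glycine), whose single gene supplies enzyme to both compartments, measured 119 and 116 TPM untreated, 98.9 and 97.8 TPM with LPS and 224 and 225 TPM with Met + LPS, with replicates within a few TPM and no overlap between groups. Cars (cysteine) measured 33.8 and 36.05 TPM untreated, 29.2 and 29.5 TPM with LPS and 66.3 and 62.8 TPM with Met + LPS, a 2.20-fold difference between the means. The log2 fold changes from LPS to Met + LPS were 1.24, 1.18 and 1.11 for Yars, Gars and Cars, with limma adjusted p-values of 1.99e-05, 6.08e-06 and 1.99e-05.

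Nars (asparagine) was the most abundant of all 36 transcripts. It measured 324 and 323 TPM untreated, 280.0 and 263 TPM with LPS and 552 and 559 TPM with Met + LPS, a 2.05-fold difference between the Met + LPS and LPS means. Iars (isoleucine), an MSC subunit, measured 76.01 and 79.9 TPM untreated, 67.98 and 68.5 TPM with LPS and 136 and 142 TPM with Met + LPS. Its Met + LPS libraries were 2.04 times the LPS libraries in the mean, and 85.3% of its 31-base words were its own, the rest being shared mostly with the pseudogene Gm4849. Mars (methionine), which charges the initiator tRNA as well as the elongator tRNA, measured 59.6 and 66.3 TPM untreated, 41.99 and 38.8 TPM with LPS and 82.8 and 77.5 TPM with Met + LPS. Lars (leucine), also known as a leucine sensor upstream of mTORC1, measured 65.2 and 66.9 TPM untreated, 51.2 and 49.2 TPM with LPS and 89.95 and 87.7 TPM with Met + LPS. In both genes the Met + LPS libraries lay above all untreated libraries, and the log2 fold changes from LPS were 0.97 ± 0.07 and 0.81 ± 0.04. The exons of Mars overlap those of Ddit3 on the opposite strand over 1.99% of their bases.

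A further 6 cytosolic enzymes were called higher with smaller changes. These were Tars (threonine, 0.68), Rars (arginine, 0.49), Farsb (the beta subunit for phenylalanine, 0.43), Vars (valine, 0.41), Qars (glutamine, 0.28) and Wars (tryptophan, 0.24), each given as a log2 fold change. Wars, an enzyme known to be induced by interferon, had the smallest of these, at 69.3 and 68.7 TPM with LPS and 78.8 and 84.2 TPM with Met + LPS. The calls for Vars and Wars depended on the fit. With only the 4 libraries of both groups in the fit, the adjusted p-values were 0.0139 for Vars and 0.0168 for Wars, and leaving out any library but Met + LPS replicate 2 lost the call for Vars, as did leaving out any but Met + LPS replicate 1 for Wars (adjusted p = 0.0135 to 0.0267). The call for Qars was lost without LPS replicate 2 (adjusted p = 0.0106) and without Met + LPS replicate 1 (adjusted p = 0.0108). Tars kept its call in every setting run and lay just under the fold cut-off.

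The remaining 4 cytosolic enzymes were not called in either direction. Kars (lysine, 0.01) measured 71.7 and 69.9 TPM with LPS and 68.8 and 73.7 TPM with Met + LPS, and Dars (aspartate, 0.00) measured 65.7 and 65.2 TPM with LPS and 65.02 and 66.2 TPM with Met + LPS. In both, the libraries of the groups overlapped. Hars (histidine) had a log2 fold change of -0.11 ± 0.03 (limma adjusted p = 0.0361). Farsa, the alpha subunit for phenylalanine, had -0.27 ± 0.06 (limma adjusted p = 0.0142), with 40.6 and 42.9 TPM with LPS and 32.8 and 36.3 TPM with Met + LPS. Farsa passed the threshold with voom (adjusted p = 0.000865) and with a minimum of 5 TPM (adjusted p = 0.00597). The 2 subunits of the phenylalanine enzyme thus had estimates of opposite sign, with Farsb called higher and Farsa not called.

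Class and complex membership were compared as counts. With Met + LPS against LPS, 9 of 9 cytosolic class I enzymes and 6 of 10 class II enzymes were called higher, with medians of 0.81 and 0.56 in log2 fold change, while Eprs holds a domain of each class. Of the 8 synthetases of the MSC, 6 were called higher, and 10 of the 12 free enzymes were. The medians were 0.65 for MSC and 0.86 for free enzymes, so that increases were spread over both classes and both the bound and the free enzymes. Without Gars and Kars, whose genes serve both compartments, 15 of 18 cytosolic enzymes were called higher. The 3 non-enzymatic MSC scaffold proteins are described with the partner genes.

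Promoter sequence was examined because several members increased together. Windows of 26 of the 36 genes, matched to the RefSeq promoter table by symbol (27 windows, GRCm38.p6), were searched, each reaching from 250 bases before to 50 bases after an annotated start site. The search covered both strands for TGATGNAA, the core of a CARE, and for CACGTG, an E-box, motifs that share no overlap in these windows. TGATGNAA occurred in 4 of the 12 cytosolic promoters searched (33.3%) and in 0 of 14 mitochondrial promoters, beside 3.97% of all windows of the table and 2.81% of the tested genes. The 4 were Yars, Gars, Iars and Tars, with a single match each. In 22 of the 27 windows the start of an annotated transcript of the gene was found in the gene's orientation. A match is a description of letters and not evidence of binding.

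The 4 matches are shown with 10 bases on each side, on the strand of the gene, to compare their surroundings. Capitals mark the match, which stands on the gene's strand in Yars and on the opposite strand in the others.
Yars, chr4:129189896-129189923, 3 bases after the start site: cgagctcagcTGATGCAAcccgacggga
Gars, chr6:55037961-55037988, 30 bases before the start site: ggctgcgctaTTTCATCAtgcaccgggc
Iars, chr13:49682127-49682154, 7 bases after the start site: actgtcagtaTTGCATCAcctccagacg
Tars, chr15:11399656-11399683, 15 bases before the start site: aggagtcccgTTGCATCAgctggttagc

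All 4 matches fell within 30 bases of the start site. Of the 4 genes, 3 were past the 0.7 cut-off with Met + LPS, and Tars had a log2 fold change of 0.68. Of the 8 cytosolic genes searched that held no match, 3 were past it too, namely Sars (1.66), Eprs (1.52) and Mars (0.97), so that large increases occurred with and without these letters. Several other members past the cut-off, among them Cars, Lars and Nars, were not searched, so these counts are incomplete. The whole windows are shown for Yars and Gars, which had the largest increases of the 4, with the match in capitals.
Yars, chr4:129189653-129189952, plus strand: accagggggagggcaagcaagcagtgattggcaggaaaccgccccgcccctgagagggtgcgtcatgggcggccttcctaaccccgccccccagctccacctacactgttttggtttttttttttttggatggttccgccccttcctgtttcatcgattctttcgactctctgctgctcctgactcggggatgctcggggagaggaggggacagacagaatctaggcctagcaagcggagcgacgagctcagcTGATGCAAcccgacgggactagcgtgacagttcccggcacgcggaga
Gars, chr6:55037751-55038050, plus strand: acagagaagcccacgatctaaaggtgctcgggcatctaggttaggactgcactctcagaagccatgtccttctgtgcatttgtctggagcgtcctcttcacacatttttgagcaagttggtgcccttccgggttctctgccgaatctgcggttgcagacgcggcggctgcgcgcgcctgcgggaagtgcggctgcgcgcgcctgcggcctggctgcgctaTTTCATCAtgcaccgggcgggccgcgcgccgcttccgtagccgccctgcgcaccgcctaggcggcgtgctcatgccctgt

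CACGTG occurred in 3 of the 12 cytosolic promoters (Iars, Tars and Farsb) and in 1 of 14 mitochondrial promoters (Ears2), beside 7.15% of all windows and 12.2% of the tested genes. Iars and Tars held both motifs. With these few windows the shares serve as a description only.

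**Figure D3:**
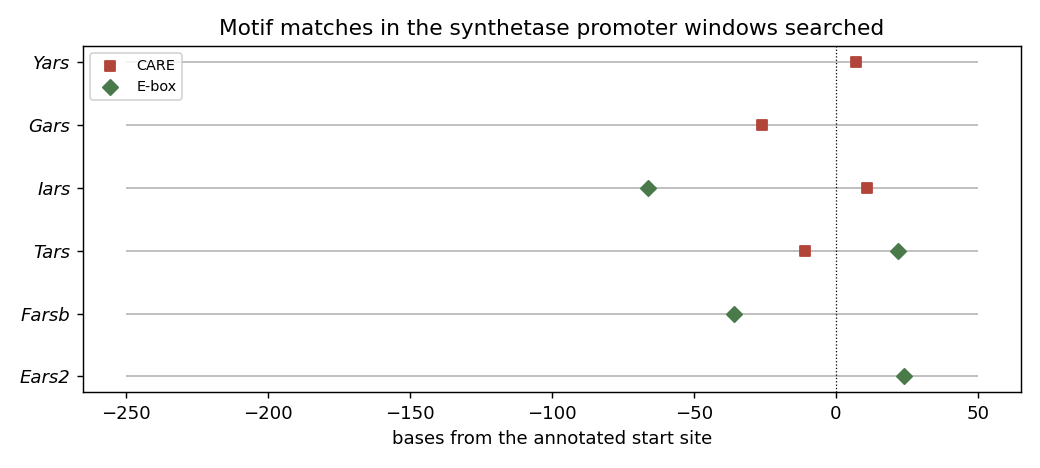
Centres of motif matches (squares, CARE core; diamonds, E-box) in bases from the annotated start site, drawn in the 300-base windows (grey lines) of the 6 enzymes with a match among those searched, ordered by the increase with Met + LPS. The 4 CARE matches lie within 30 bases of the start site, and none lies in a mitochondrial enzyme.

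Among the mitochondrial enzymes, 3 of 16 were called higher with Met + LPS and 13 were not called. This count was not far above the 14.5% called higher over all tested genes. Wars2 (tryptophan) had the highest log2 fold change of the 16. It measured 6.90 and 7.18 TPM untreated, 3.03 and 2.90 TPM with LPS and 5.21 and 5.13 TPM with Met + LPS, so that the Met + LPS libraries lay between those of the other groups. The log2 fold change was 0.64 ± 0.07 (SE, n = 2 per group, limma adjusted p = 0.000727), and on TPM alone the level rose 1.74-fold. Fars2 (phenylalanine) measured 10.3 and 11.3 TPM untreated, 8.98 and 8.61 TPM with LPS and 12.04 and 12.01 TPM with Met + LPS, which put the Met + LPS libraries above both other groups. Its log2 fold change was 0.41 ± 0.07 (limma adjusted p = 0.0028), and 90.2% of its 31-base words occur in no other gene. Yars2 (tyrosine) had 0.30 ± 0.05 (limma adjusted p = 0.00475). When either LPS library or either Met + LPS library was left out, Wars2 was the only mitochondrial enzyme still called, and Fars2 and Yars2 had adjusted p-values of 0.0125 to 0.028. Without either untreated library Yars2 also lost its call (adjusted p = 0.016 and 0.0161).

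Mars2 (methionine) had the lowest TPM of all members with LPS, with 11294 exon bases as its length. It measured 4.04 and 3.65 TPM untreated, 1.27 and 0.958 TPM with LPS and 1.90 and 2.16 TPM with Met + LPS, on 79 to 347 reads per library. The Met + LPS libraries were above the LPS libraries, and the log2 fold change was 0.52 ± 0.12 (limma adjusted p = 0.0138). A log2 scale with a pseudocount of 1 TPM compresses changes at such levels, and voom on the reads gave 0.87 (adjusted p = 7.65e-05), a call that the TPM fit did not make. Aars2 (alanine) had 0.30 ± 0.10 (limma adjusted p = 0.0435).

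At the other end, Pars2 (proline) had the lowest log2 fold change of all 36. It measured 6.21 and 6.86 TPM untreated, 1.83 and 1.99 TPM with LPS and 1.20 and 1.13 TPM with Met + LPS, on 28 to 152 reads per library. The groups did not overlap, and the log2 fold change was -0.43 ± 0.10 (limma adjusted p = 0.0136). Pars2 passed the threshold with a pseudocount of 0.1 (-0.67, adjusted p = 0.00873) and without the mean-variance trend (adjusted p = 0.00645), and not with voom. Cars2 (cysteine) measured 6.11 and 6.10 TPM untreated, 3.65 and 3.82 TPM with LPS and 3.16 and 3.09 TPM with Met + LPS, with a log2 fold change of -0.20 ± 0.08. Iars2 (isoleucine) measured 35.4 and 34.1 TPM untreated, 24.5 and 21.3 TPM with LPS and 20.9 and 19.4 TPM with Met + LPS, with -0.17 ± 0.08. Neither was called (limma adjusted p = 0.0769 and 0.107), and 76.4% of the 31-base words of Iars2 are its own, the rest being shared mostly with Rab3gap2 on the opposite strand.

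The other 8 mitochondrial enzymes had log2 fold changes between -0.16 and 0.08 and none was called. They were Lars2 (0.08), Ears2 (glutamate, 0.06), Sars2 (serine, 0.04), Tars2 (threonine, 0.01), Rars2 (arginine, -0.01), Nars2 (asparagine, -0.01), Vars2 (valine, -0.11) and Hars2 (histidine, -0.16). Lars2 was measured as precisely as the cytosolic enzymes, on 6571 to 9222 reads, with 77.8 and 83.7 TPM with LPS and 83.4 and 87.5 TPM with Met + LPS. Its groups overlapped, and the estimate of 0.08 ± 0.05 lay well under the increase of Lars. The calls do not show that the uncalled enzymes were unchanged.

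The enzymes were then set in pairs by amino acid, giving 17 pairs over 16 amino acids, since Eprs pairs with both Ears2 and Pars2 and Fars2 pairs with both Farsa and Farsb. The cytosolic enzyme had the larger log2 fold change with Met + LPS in 15 of the 17 pairs. The exceptions were tryptophan, where Wars had 0.24 and Wars2 0.64, and Farsa with -0.27 against 0.41 for Fars2. The widest gap was that of proline, at 1.94 between Eprs and Pars2 on the log2 scale, followed by serine at 1.63 and glutamate at 1.46. Histidine and Farsb were the closest pairs, with gaps of 0.05 and 0.01. These gaps are differences of estimates and were not tested pair by pair.

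**Figure D4:**
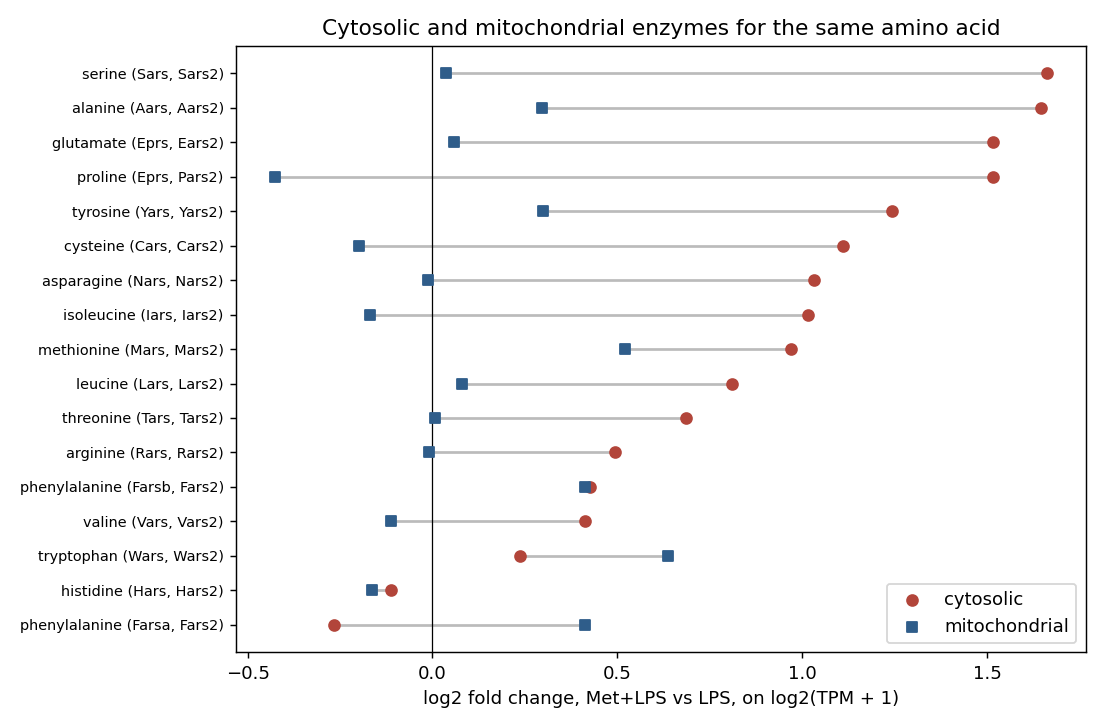
Log2 fold change from LPS to Met + LPS on the log2(TPM + 1) scale for the cytosolic (circles) and mitochondrial (squares) enzyme of each amino acid, joined by a line. The circle lies to the right of the square in 15 of 17 pairs; tryptophan and the Farsa pair are the other way round.

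In levels, the cytosolic transcript exceeded its mitochondrial partner in all 3 groups in 16 of the 17 pairs. The median ratio of the TPM means was 5.13 in untreated BMDMs, 7.93 with LPS and 13.3 with Met + LPS. Leucine was the exception, with a ratio of Lars to Lars2 of 0.6 untreated, 0.622 with LPS and 1.04 with Met + LPS, so that only with Met + LPS did the cytosolic transcript reach the mitochondrial one. Nars exceeded Nars2 by the most, with ratios of 119.9, 164 and 340.2 in the same order. The ratio of the summed cytosolic to the summed mitochondrial TPM went from 5.45 untreated to 7.37 with LPS and 12.3 with Met + LPS. A ratio of genes within a library does not depend on how the libraries were scaled. It does depend on the exon lengths behind the TPM, so the size of a ratio is approximate.

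The second comparison asked what 2 h of LPS did on its own. In the TPM as deposited, 3 cytosolic enzymes were higher and 14 lower with LPS than in untreated BMDMs, and 16 of 16 mitochondrial enzymes were lower (limma, adjusted p-value under 0.01). Over all tested genes, 16.2% were called higher and 60.1% lower, and the median log2 fold change was -0.48. Some downward calls of members depended on the fit. Those for Fars2 and Nars2 were lost without the filter on low values. Those for Fars2 and Hars were lost with only the libraries of both groups in the fit, and that for Hars also with voom. Without the mean-variance trend, those for Cars, Hars, Iars and Fars2 were lost. The calls for Cars, Hars, Iars, Ears2, Fars2, Nars2 and Yars2 also did not hold when certain single libraries were left out. When each library was divided by its median ratio to the geometric mean over genes, the median of all genes moved to -0.01. After this rescaling, 12 cytosolic enzymes were higher and 1 lower, and 6 mitochondrial enzymes were lower and 0 higher, with 30.6% of all genes called higher and 27.6% lower. The direction of most cytosolic enzymes thus depended on the scaling. The medians were -0.25 for cytosolic and -0.73 for mitochondrial enzymes as deposited, and 0.27 and -0.26 after rescaling, so that the cytosolic median lay above and the mitochondrial median below that of all genes either way. None of the 36 passed the study's cut-off of an absolute log2 fold change of 2, which 3.72% of all genes passed upwards and 2.37% downwards.

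Kars, whose single gene makes the lysine enzyme of both compartments, had the largest increase. It measured 52.9 and 49.4 TPM untreated, 71.7 and 69.9 TPM with LPS and 68.8 and 73.7 TPM with Met + LPS, so that all 4 LPS-treated libraries were above both untreated libraries. The log2 fold change from untreated to LPS was 0.46 ± 0.05 (limma adjusted p = 0.00017) and 0.98 after rescaling. Rars (arginine), a subunit of the MSC, measured 114 and 109.8 TPM untreated, 135 and 129 TPM with LPS and 189.5 and 183 TPM with Met + LPS, which rose from group to group. Its log2 fold change with LPS was 0.24 ± 0.04 (limma adjusted p = 0.00131), or 0.76 rescaled. Wars measured 60.1 and 60.8 TPM untreated, 69.3 and 68.7 TPM with LPS and 78.8 and 84.2 TPM with Met + LPS, with 0.19 ± 0.04 (limma adjusted p = 0.00511), or 0.71 rescaled. These 3 were called higher in both scalings. The call for Wars was lost when any untreated or LPS library was left out (adjusted p = 0.0214 to 0.0358), and that for Rars without untreated replicate 2 (adjusted p = 0.0149).

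The largest decreases were all mitochondrial. Pars2 went from 6.21 and 6.86 TPM untreated to 1.83 and 1.99 TPM with LPS, a level 3.42 times lower in the means. Its log2 fold change was -1.37 ± 0.10 (limma adjusted p = 2.22e-05) and -0.95 after rescaling. Mars2 went from 4.04 and 3.65 TPM to 1.27 and 0.958 TPM, with -1.20 ± 0.12 (limma adjusted p = 0.000112) and -0.83 rescaled. Hars2 (histidine) measured 26.3 and 27.2 TPM untreated, 10.7 and 11.7 TPM with LPS and 9.74 and 9.98 TPM with Met + LPS, with -1.19 ± 0.06 (limma adjusted p = 4.05e-06) and -0.69 rescaled. In all 3 the untreated libraries lay above every library that had received LPS, with or without metformin. Hars2 and Hars start from neighbouring sites on opposite strands, and 4.56% of the exon bases of Hars2 overlap Hars, which had -0.14 as deposited and 0.38 rescaled.

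After rescaling, Vars2 (-0.70), Aars2 (-0.61) and Wars2 (-0.58) were the other mitochondrial enzymes called lower. Fars2, Yars2 and Lars2 changed sign, from -0.26, -0.32 and -0.44 as deposited to 0.21, 0.17 and 0.08, and were then not called. Of the cytosolic enzymes, Sars alone was called lower in both scalings, with -0.78 as deposited and -0.26 rescaled. The cytosolic enzymes called higher only after rescaling were Farsa (0.52), Hars (0.38), Eprs (0.37), Tars (0.37), Iars (0.33), Gars (0.27), Nars (0.27), Cars (0.27) and Aars (0.21), given as rescaled log2 fold changes. For Dars, Lars and Yars the sign turned as well, without a call after rescaling.

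**Figure D5:**
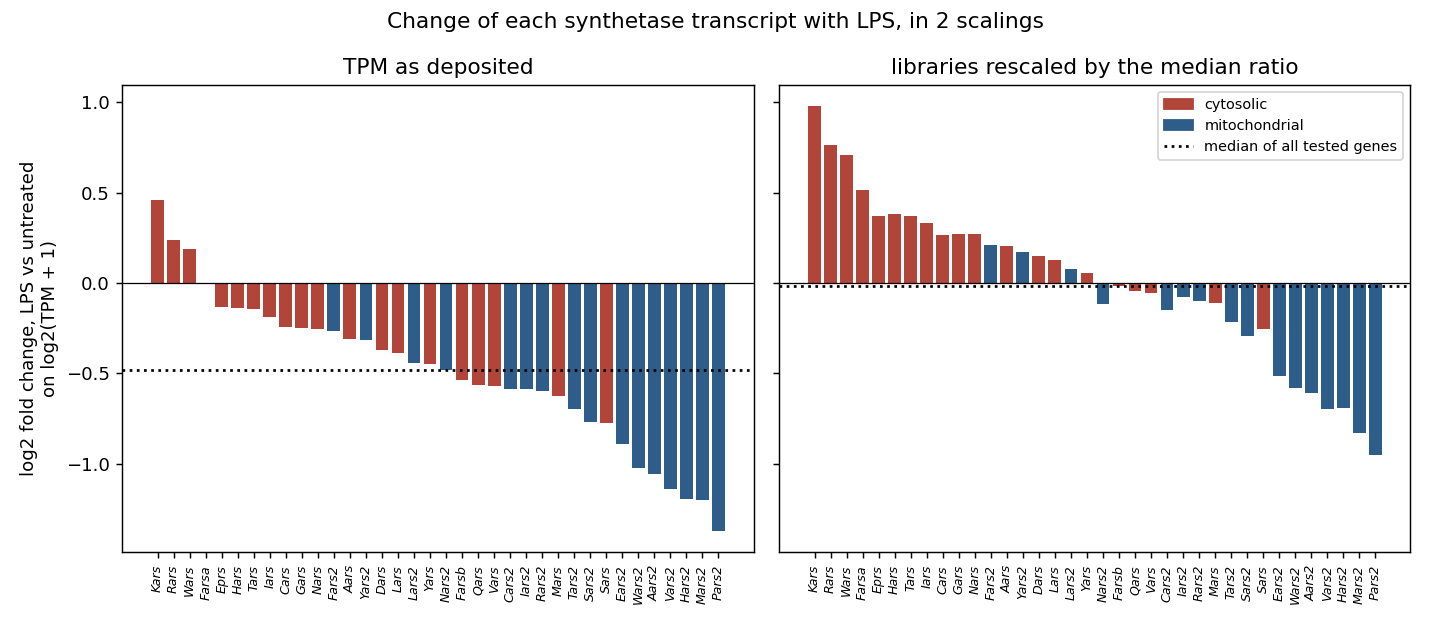
Log2 fold change of each enzyme from untreated to LPS on the log2(TPM + 1) scale, from the TPM as deposited (left) and from TPM divided by each library's median ratio (right); the dotted line is the median of all tested genes, -0.48 and -0.01. Kars, Rars and Wars are above 0 in both panels, and Pars2, Mars2 and Hars2 lie furthest below the dotted line in the left panel.

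Against untreated BMDMs, Met + LPS gave 14 enzymes called higher, all cytosolic, and 18 called lower, of which 14 were mitochondrial (limma, adjusted p-value under 0.01). Over all tested genes 16.3% were higher and 58.8% lower. After rescaling, 21 were higher and 4 lower, beside 33.4% and 29.7% of all genes, so that the direction of many members again depended on the scaling. The cytosolic enzymes called lower in the TPM as deposited were Dars, Farsa, Hars and Qars, and none of these was lower after rescaling. The largest increases were Eprs at 1.38, Aars at 1.34 and Gars at 0.93 in log2 fold change, or 1.91, 1.87 and 1.47 rescaled. Pars2 had the largest decrease, at -1.80, or -1.39 rescaled. Pars2 was thus lowest with Met + LPS, while Wars2 and Mars2 with Met + LPS lay between their LPS and their untreated levels in the TPM as deposited.

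Genes that work beside the synthetases were followed as a list of 14, of which 13 passed the filter. With Met + LPS against LPS, 3 of the 13 were called higher and 1 lower, beside 14.5% and 18% of all tested genes, with a median log2 fold change of 0.07. Qrsl1, a subunit of the amidotransferase that makes mitochondrial glutaminyl-tRNA, measured 2.91 and 2.62 TPM with LPS and 5.39 and 5.42 TPM with Met + LPS (0.77 ± 0.08, limma adjusted p = 0.000389). Its fellow subunits Gatb (-0.18) and Gatc (0.33) were not called. Sepsecs, which completes the charging of selenocysteine tRNA, had 0.38 ± 0.06.

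Of the MSC scaffold proteins, Aimp1 was called higher (0.28), and Aimp2 (-0.01) and Eef1e1 (0.23) were not. Dtd1, a deacylase that removes D-amino acids from tRNA, was the gene called lower (-0.50 ± 0.06). The remaining genes of the list, Mtfmt (0.07), Dtd2 (-0.38), Pstk (0.15), Trnt1 (0.06) and Ptrh2 (-0.07), were not called, and Aarsd1 stayed under the filter. With LPS against untreated, 11 of the 13 were lower and 1, Eef1e1, was higher (0.73) in the TPM as deposited, where 60.1% of all tested genes were lower and 16.2% higher. After rescaling 7 were lower and 3 higher, beside 27.6% and 30.6% of all genes.

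Genes known to respond to amino acid shortage formed a second list, of 12, and 11 of them were called higher with Met + LPS against LPS, beside 14.5% of all tested genes, with a median log2 fold change of 1.42. Trib3, a pseudokinase, measured 4.88 and 4.26 TPM with LPS and 58.9 and 62.1 TPM with Met + LPS (3.47 ± 0.07, limma adjusted p = 4.41e-06). Asns, the asparagine synthetase that supplies the substrate of Nars, measured 56.9 and 53.6 TPM with LPS and 303 and 314 TPM with Met + LPS (2.46 ± 0.04). Slc7a11, the cystine importer, had 2.44, Sesn2 2.16, and Ddit3, the transcription factor CHOP, 1.86. The transcript of Atf4 itself had 0.75 ± 0.03, an increase smaller than those of Sars, Aars and Eprs. The others called were Atf5 (1.64), Cebpg (1.21), Chac1 (1.11), Eif4ebp1 (1.08) and Atf3 (0.24).

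Psat1, an enzyme of serine synthesis, was the gene of the list not called, at 30.8 and 30.3 TPM with LPS and 31.3 and 28.8 TPM with Met + LPS (-0.03 ± 0.05). The list was written with earlier results of these data known, so that its count is not independent of them. Its name says what the genes are known for. Amino acid supply was not measured in these libraries, and the cause of the increases was not tested. With LPS against untreated, 3 of the 12 were higher and 7 lower in the TPM as deposited, beside 16.2% and 60.1% of all tested genes. After rescaling 6 were higher and 4 lower, beside 30.6% and 27.6%. Ddit3, Trib3, Sesn2 and Cebpg were lower with LPS in both scalings, at -1.21, -1.28, -1.83 and -0.72 in rescaled log2 fold change, and their Met + LPS levels were higher than with LPS by 1.86, 3.47, 2.16 and 1.21. Both comparisons rest on the same 2 LPS libraries, so that their values for a gene are not independent.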

How the data were processed

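RNA-seq was available for 6 libraries of BMDMs, 2 per group. The authors enriched poly-A RNA, and the submitters' processing notes name STAR 2.6.1d, SAMtools 1.9 and featureCounts of Subread 1.6.3 with GRCm38 (mm10). The authors deposited TPM per gene, and 0 columns belonged to other samples. Whether the counting used strand is not given in the sources used here.

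A gene entered the test when 2 or more libraries reached 1 TPM, which left 12755 genes. For these, log2(TPM + 1) was fitted over all 6 libraries (3 residual degrees of freedom) by limma 3.58.1 (R 4.3.3), whose eBayes step used a mean-variance trend, and p-values were adjusted by Benjamini-Hochberg. A fold change on this scale understates changes of low genes. An exact permutation test of 2 against 2 libraries cannot give a two-sided p below 0.3333 and was not used. Reads were recovered from TPM and exon length (GENCODE annotation, 54495 genes), and 97.2% to 97.5% of values up to 1000 reads came out whole within 0.05 reads. On simulated reads for 12750 genes (Met + LPS vs. LPS), limma recovered 143 of 200 changed genes with 4 false calls. This recovery is for the 200 genes together and not by level, so it does not describe the low mitochondrial transcripts.

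Every member was named, and values per library were given for members past the cut-offs with Met + LPS, for the 3 largest changes each way with LPS and for the 3 highest and 3 lowest mitochondrial enzymes. The members and lists were chosen with earlier results of these data known. The fit was repeated with median-ratio rescaling, no filter, a minimum of 5 TPM, a pseudocount of 0.1, the compared groups only, the replicate number as a block, no trend, an adjusted p-value under 0.05, voom on the recovered reads, Gars and Kars left out of the cytosolic group, and each library left out. Tables and plots used Python 3.11.15, pandas 2.3.3, numpy 2.4.6 and matplotlib 3.10.9. Protein sequences were not used here. Besides the 14 partner genes described, 2 genes first placed on that list are not reported here, nor is 1 promoter window.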

Additional observations from a re-analysis of the deposited data

How the results depend on the processing

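With Met + LPS against LPS, the 10 members past the fold cut-off, all cytosolic, became 11 with a pseudocount of 0.1 and with median-ratio scaling. They became 12 with voom, among them the mitochondrial Mars2 (0.87). The 16 cytosolic enzymes called higher became 14 with no filter, with the compared groups only and without the trend. Some of these calls were also lost when a library was left out, as described for Vars, Wars and Qars. The gap of 0.73 between the cytosolic and mitochondrial medians kept its sign in the settings run. In that comparison, cytosolic enzymes called lower went from 0 to 1 with a minimum of 5 TPM, with the replicate block and with voom, and to 2 at an adjusted p under 0.05. Mitochondrial enzymes called higher went from 3 to 1 with no filter and to 5 at an adjusted p under 0.05, and were 1 to 2 when a library was left out. Mitochondrial enzymes called lower went from 0 to 1 with a pseudocount of 0.1, with a minimum of 5 TPM, without the trend and at an adjusted p under 0.05. For these moves the cause was not tested.

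Median-ratio scaling changed LPS against untreated most. Cytosolic enzymes called higher went from 3 to 12 and those called lower from 14 to 1, and mitochondrial ones called lower from 16 to 6. With Met + LPS against untreated, those called lower went from 18 to 4. With that scaling the log2 fold change from untreated to LPS turned positive for Aars (0.21), Cars (0.27), Dars (0.15), Eprs (0.37), Gars (0.27), Hars (0.38), Iars (0.33), Lars (0.13), Nars (0.27), Tars (0.37), Yars (0.056), Fars2 (0.21), Lars2 (0.078) and Yars2 (0.17), and that of Rars2 from LPS to Met + LPS became 0.0035. The gap between the medians with LPS went from 0.48 to 0.56 with voom, and cytosolic enzymes called higher with LPS were 1 to 3 when a library was left out.

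Leaving out a library turned the sign only of members that were not called. From LPS to Met + LPS their log2 fold changes ranged from -0.0103 to 0.0151 for Dars, from -0.039 to 0.0581 for Kars, from -0.129 to 0.244 for Ears2, from -0.0636 to 0.0371 for Nars2, from -0.0764 to 0.057 for Rars2, from -0.0101 to 0.0814 for Sars2, from -0.0191 to 0.0309 for Tars2 and from -0.236 to 0.0131 for Vars2. With LPS, Farsa ranged from -0.0453 to 0.0497.

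Same-numbered libraries did not deviate together over genes as a whole (correlations of -0.0037, 0.0284 and 0.0062). With 2 libraries per group, this cannot exclude that they shared a mouse, culture or day. With the replicate block, 10 members stayed past the fold cut-off, Farsa was called lower with Met + LPS (-0.27), and mitochondrial enzymes called lower with LPS went from 16 to 14. With 3 residual degrees of freedom and as few as 28 reads, small changes of the low mitochondrial transcripts could not be detected.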
